A study of Homo sapiens with 5 samples.

Results

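The TNF superfamily comprises ligands of the tumour necrosis factor type and their receptors, and it was examined here together with the TRAF adaptors and TNFAIP3 (A20) that act below the receptors. Members were chosen by name from the annotation of the array platform: every gene whose symbol begins with TNFRSF or TNFSF and a digit, and TNF, LTA, LTB, LTBR, CD40, CD70, EDAR, FASLG, NGFR, TRAF1, TRAF3, TRAF5, TRAF6 and TNFAIP3. This gave 48 genes with 73 probes, of 20044 named genes and 47318 probes in all. TRAF2, also on the list, was not analysed here.

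RNA was measured on Illumina BeadChip arrays, with 1 array per cell line. The resistant group consisted of 4 gastric cancer lines resistant to trastuzumab, named N87-TR1 to N87-TR4. The other group was NCI-N87, 1 array of a gastric cancer line sensitive to this antibody, which targets ERBB2. All 5 lines were grown in the same serum-supplemented RPMI medium, and the labels do not say how the resistant lines were derived, whether each is a single clone or whether trastuzumab was present at harvest. P-values therefore reflect only how far these samples lie apart, which may be technical in origin, and the lone NCI-N87 array was assumed to vary like the resistant lines.

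Ligands of this family are made as membrane proteins, some of which are released by proteases, and they bind receptors as trimers. Receptors with an intracellular death domain can assemble a complex that activates caspases, other receptors bind TRAF adaptors and act through NF-kB and MAP kinases, and decoy receptors bind ligand without passing on the full signal. In gut epithelium, lymphotoxin beta receptor, HVEM and the Fn14 receptor are known for roles in barrier defence and repair, and the receptors for TRAIL for triggering cell death.

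Across the series, 10248 to 11069 genes were detected in the resistant lines and 10381 in NCI-N87, and median probe signals were 138.8 to 158.2 in the resistant lines and 133.8 in NCI-N87. Across genes, which are not independent replicates, the resistant lines correlated with NCI-N87 at r = 0.751 to 0.764 and with each other at r = 0.943 to 0.979. As a check of the labels, ERBB2 stood at a normalised log2 signal of 10.45 ± 0.23 (SD, n = 4) in the resistant lines and 15.90 in NCI-N87. An epithelial identity was borne out in NCI-N87, where 7 of 8 epithelial markers were detected. The remaining marker, CLDN18, had no detected probe on any array, and the gastric part of the label was not checked further. The keratin KRT19 was undetected in all 4 resistant lines, and 6 of 7 tested markers, ERBB2 among them, fell. The summed signal of the 7 tested epithelial markers was 2956 to 4693 in the resistant lines and 155779 in NCI-N87. Such a sum rests mostly on the brightest probes, in NCI-N87 those of ERBB2 (log2 level 15.90) and KRT19 (15.51). Of 12 leukocyte markers 5 were tested, with a summed signal of 4004 to 6425 in the resistant lines and 4930 in NCI-N87, most of it from CD68. Of these, CD79A and ITGAM fell and 3, CD68, CD14 and LCP1, did not pass. CD68 (12.15 in the resistant lines, 12.08 in NCI-N87) and CD14 (7.44 and 7.64) were detected on all 5 arrays. LCP1 was detected in NCI-N87 alone. PTPRC, CD3D and CD3E were among the leukocyte markers with no detected probe. Of 7 fibroblast markers only COL1A1 was tested, with 0 passing by limma and 0 at an unadjusted p under 0.05, and none of 5 endothelial markers was detected. The part of these marker differences in the results below was not tested, and in bulk RNA fewer expressing cells and less RNA per cell cannot be told apart.

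A gene was tested when a probe reached a detection p-value under 0.01, the scanner's comparison with negative controls, on at least 1 array. This left 28 of the 48 genes, and a gene near background in 1 group could enter through the other. In the comparison of the 4 resistant lines with NCI-N87 by limma, 23.1% of all 12478 tested genes had a Benjamini-Hochberg adjusted p under 0.05, 12.5% higher and 10.5% lower in the resistant lines. Of the 28 tested members, 3 rose, 8 fell and 17 did not pass. Their median log2 difference was 0.02, against 0.07 over all genes tested. At an unadjusted p under 0.05 there were 14 of the 28 members and 4454 of the 12478 genes. NCI-N87 lay outside the range of the resistant lines for 21 of the 28 members, against 68.6% of all genes. The probe used was detected on all 5 arrays for 12 of the 28 members, against 69.6% of all genes. With the test limited to probes detected on all 5 arrays, 2 of 12 members passed, against 16.8% of 8701 genes. The 8 members that fell were the receptors EDAR, LTBR, TNFRSF14, TNFRSF10A, TNFRSF19, TNFRSF12A and TNFRSF1B and the ligand TNFSF10, and the 3 that rose were the ligands CD70 and TNFSF9 and the receptor TNFRSF11A.

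**Figure D1:**
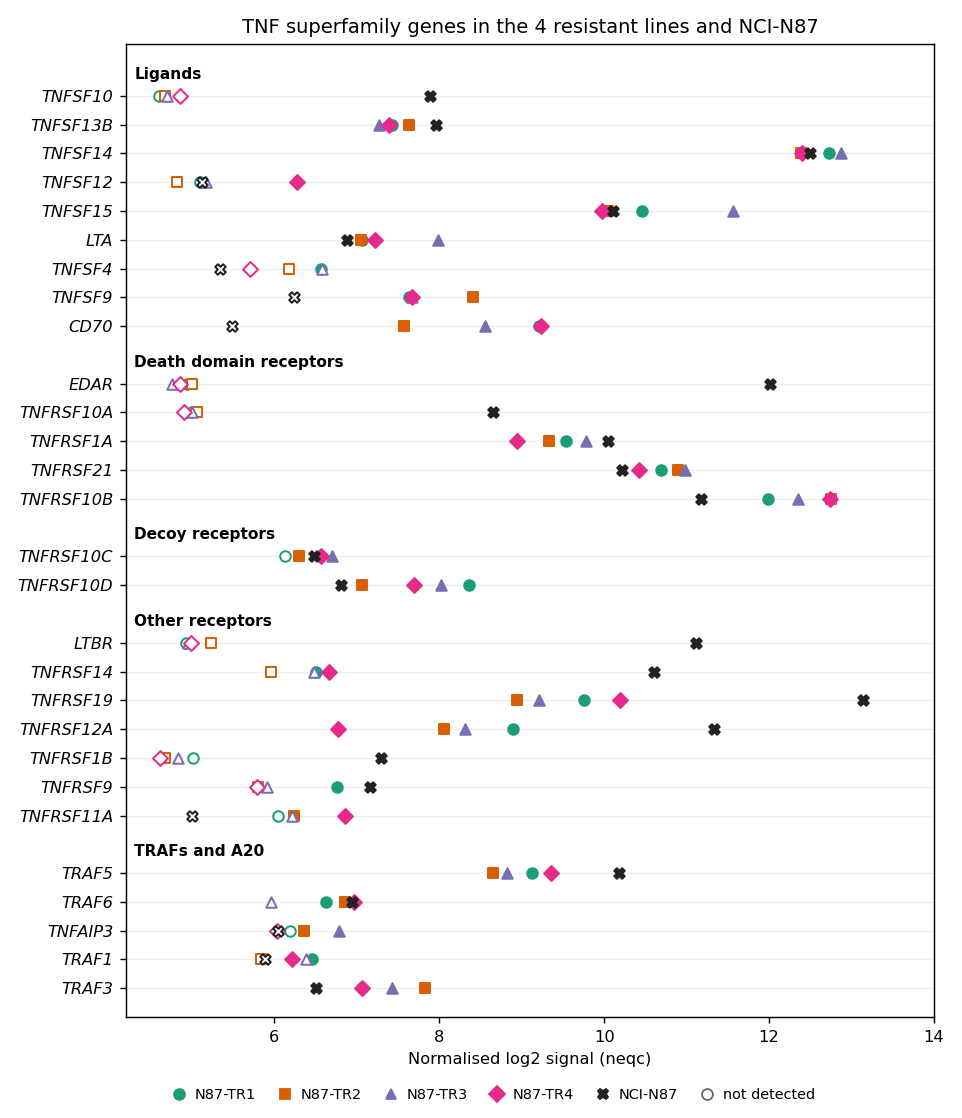
Normalised log2 signal (x axis) of the 28 tested members (y axis, by role), with 1 symbol per array; open symbols mark probes that were not detected. The NCI-N87 cross lies to the right of all 4 resistant lines for EDAR, LTBR, TNFRSF14, TNFRSF19 and TNFRSF12A and to the left of them for CD70 and TNFSF9.

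Of the 7 tested receptors that are neither death domain receptors nor TRAIL decoys, 5 fell and 1 rose, against 10.5% lower and 12.5% higher over all genes. LTBR, the receptor for lymphotoxin alpha-beta and LIGHT that activates the non-canonical NF-kB route, stood at log2 levels of 4.92, 5.24, 4.96 and 4.99 in N87-TR1 to N87-TR4, against 11.11 in NCI-N87. None of the resistant lines showed a detectable signal, so LTBR was at least 27.2-fold lower (log2 difference -6.09 ± 0.30, SE, limma adjusted p = 4.94e-05). A fold given as at least N-fold sets the brighter group against the lowest detected signal on each array of the dimmer group, or the probe's own signal where that was higher. For genes undetected in all 4 resistant lines, such as LTBR and EDAR, the spread between these lines is that of signals near background. For LTBR the SD was 0.14, against a median of 0.33 over all genes. The SE and p-values of such genes therefore do not measure how expression varies between lines.

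TNFRSF14, also called HVEM, binds LIGHT as well as the lymphocyte receptors BTLA and CD160. Its log2 levels were 6.51, 5.96, 6.48 and 6.66 in N87-TR1 to N87-TR4, against 10.60 in NCI-N87, and its probe was detected in N87-TR1 and N87-TR4 and not in N87-TR2 or N87-TR3. The resistant lines lay in a narrow band far below NCI-N87, and TNFRSF14 fell 18.3-fold, a fold that includes the 2 undetected lines at their measured signal (log2 difference -4.19 ± 0.36, SE, limma adjusted p = 0.000337). LIGHT itself (TNFSF14), the ligand of both receptors, is given with the ligands.

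TNFRSF19, known as TROY, is an orphan receptor and a WNT target in intestinal stem cells. It was detected on all 5 arrays, at log2 levels of 9.75, 8.94, 9.21 and 10.20 in N87-TR1 to N87-TR4, against 13.13 in NCI-N87. It fell 12.2-fold (log2 difference -3.61 ± 0.50, SE, limma adjusted p = 0.00289). Of its 4 probes 3 were detected, and all 3 were lower. The other pair was detected in NCI-N87 alone, undetected in the resistant lines at 4.57 to 5.70, against a lowest level of 7.99 in NCI-N87.

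TNFRSF12A, or Fn14, is the receptor for TWEAK and is induced by injury and growth factors. It was detected in every line, at log2 levels of 8.90, 8.06, 8.32 and 6.77 in N87-TR1 to N87-TR4, against 11.33 in NCI-N87. All 4 resistant lines lay below NCI-N87, with N87-TR4 the lowest, and TNFRSF12A fell 10.00-fold (log2 difference -3.32 ± 0.72, SE, limma adjusted p = 0.0179). TNFRSF1B, the TNF receptor without a death domain, was undetected in the 4 resistant lines at log2 levels of 5.01, 4.68, 4.83 and 4.62, against 7.29 in NCI-N87. It was at least 1.92-fold lower (fitted log2 difference -2.51 ± 0.31, SE, limma adjusted p = 0.00169).

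TNFRSF11A, or RANK, is the receptor for RANKL in bone and mammary gland and was the receptor that rose. Its log2 levels were 6.05, 6.24, 6.22 and 6.86 in N87-TR1 to N87-TR4, against 5.00 in NCI-N87, with detection in 2 resistant lines and not in NCI-N87. The fitted log2 difference was 1.34 ± 0.38 (SE, limma adjusted p = 0.0463), and no bound above 1-fold could be given because the signals lay near background. The call was lost in 10 of 14 alternative settings, among them leaving out N87-TR1 (adjusted p = 0.0631), N87-TR2 (0.0871) or N87-TR4 (0.0721) in limma. TNFRSF9 (4-1BB), a costimulatory receptor of T cells, was the tested receptor of this group that did not pass, with a log2 difference of -1.09 ± 0.44 (SE, limma adjusted p = 0.129). Without N87-TR1, the line nearest NCI-N87, its adjusted p was 0.0398.

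**Figure D2:**
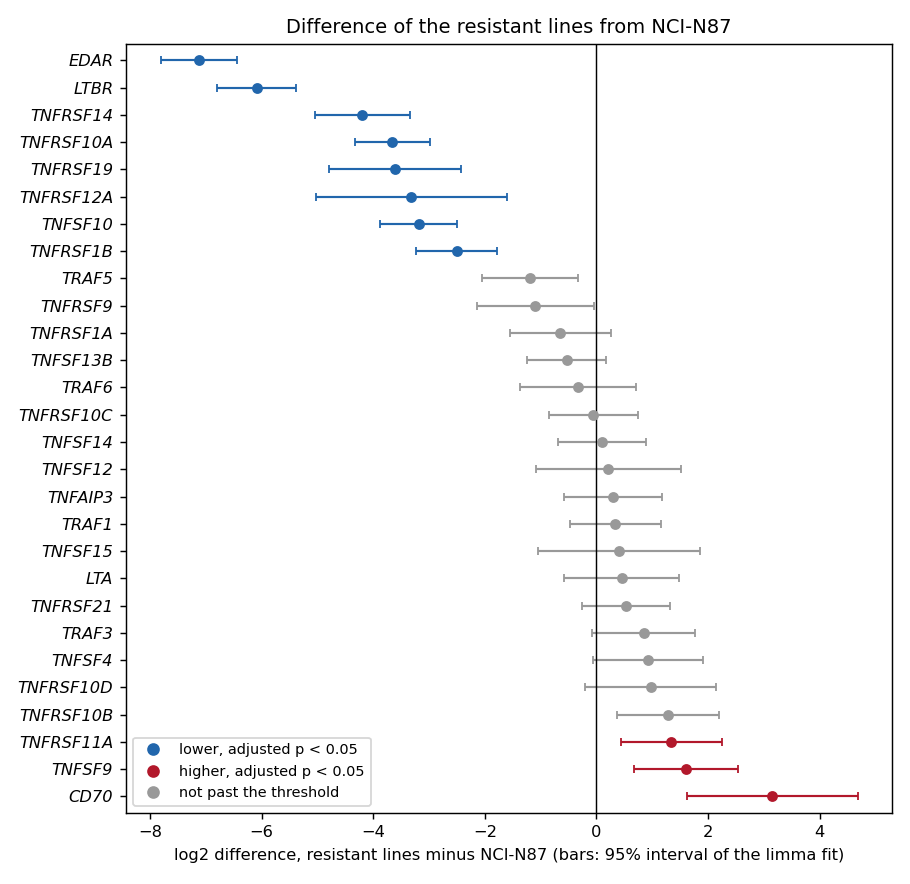
Log2 difference of the resistant lines from NCI-N87 (x axis) for each tested member (y axis), as points with the 95% interval of the limma fit; blue is lower and red higher at an adjusted p under 0.05, and grey did not pass. Intervals of the members that fell lie at or below -1.61 on the log2 scale. For members undetected in all 4 resistant lines, EDAR and LTBR among them, the point is a fitted value against background. Their intervals rest on spread near background, and the size is known only as a bound.

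Of the 5 tested death domain receptors, 2 fell and 3 did not pass, against 10.5% lower over all genes. EDAR, the ectodysplasin receptor that patterns hair, teeth and sweat glands, stood at log2 levels of 4.94, 5.00, 4.76 and 4.86 in N87-TR1 to N87-TR4, against 12.01 in NCI-N87. It was undetected in all 4 resistant lines and at least 50.7-fold lower (fitted log2 difference -7.12 ± 0.29, SE, limma adjusted p = 4.11e-05).

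TNFRSF10A and TNFRSF10B encode the death receptors DR4 and DR5 for TRAIL, and together with the decoy genes TNFRSF10C and TNFRSF10D they form a cluster on chromosome 8 with no other protein-coding gene between them in the RefSeq table. TNFRSF10A was undetected in the resistant lines at log2 levels of 5.00, 5.06, 5.01 and 4.90, against 8.65 in NCI-N87. The difference was at least 4.93-fold, lower in the resistant lines (fitted log2 difference -3.66 ± 0.28, SE, limma adjusted p = 0.000222). TNFRSF10B had log2 levels of 11.98, 12.75, 12.35 and 12.73 in N87-TR1 to N87-TR4, against 11.17 in NCI-N87. All 4 resistant lines lay above NCI-N87, but the log2 difference of 1.28 ± 0.39 (SE) did not pass (limma adjusted p = 0.0559, 95% interval 0.36 to 2.20).

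The call for TNFRSF10B depended on the setting: the adjusted p was 0.0424 without N87-TR1, 0.0468 without N87-TR3, and ranged between 0.0225 and 0.127 over 15 alternatives. A second probe of the gene, detected on all 5 arrays, differed by 1.74 ± 0.48 (SE, limma adjusted p = 0.0486 among all detected probes). The remaining probe, detected in N87-TR2 and N87-TR4 alone, had levels of 5.55, 7.12, 5.37 and 6.30 in N87-TR1 to N87-TR4, against 5.80 in NCI-N87 (limma adjusted p = 0.812), so its lines lay on both sides of NCI-N87. The decoys did not pass, 0 of 2 by limma and 0 at an unadjusted p under 0.05, against 23.1% and 4454 of all 12478 genes. TNFRSF10D was detected in every line, at log2 levels of 8.36, 7.07, 8.02 and 7.69 in N87-TR1 to N87-TR4, against 6.81 in NCI-N87, a difference of 0.97 ± 0.49 (SE, limma adjusted p = 0.212). TNFRSF10C differed by -0.06 ± 0.34 (SE, limma adjusted p = 0.926).

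TNFRSF1A, the main TNF receptor of most cells, had log2 levels of 9.53, 9.34, 9.78 and 8.95 in N87-TR1 to N87-TR4, against 10.05 in NCI-N87. The resistant lines all lay below NCI-N87, by 0.65 ± 0.38 on average (log2, SE), and the 95% interval of the difference ran from -1.56 to 0.26 (limma adjusted p = 0.277). On chromosome 12 a single protein-coding gene, SCNN1A, separates TNFRSF1A from LTBR, and it was LTBR that was at least 27.2-fold lower. TNFRSF21 (DR6), a death domain receptor studied in neurons and lymphocytes, had levels of 10.68, 10.89, 10.98 and 10.43 in the resistant lines, against 10.21 in NCI-N87 (log2 difference 0.53 ± 0.33, SE, limma adjusted p = 0.303).

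Of the 9 tested ligands, 2 rose, 1 fell and 6 did not pass, against 12.5% higher and 10.5% lower over all genes. CD70, the ligand of CD27 and a target of antibody drugs in some carcinomas, was undetected in NCI-N87 and detected in all 4 resistant lines. Its log2 levels were 9.21, 7.57, 8.56 and 9.23 in N87-TR1 to N87-TR4, against 5.49 in NCI-N87. N87-TR2 was the lowest of the resistant lines and still above NCI-N87, and CD70 was at least 4.66-fold higher (fitted log2 difference 3.15 ± 0.64, SE, limma adjusted p = 0.0143). Its receptor CD27 had no detected probe and was not tested.

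TNFSF9, the 4-1BB ligand, had log2 levels of 7.63, 8.40, 7.67 and 7.67 in N87-TR1 to N87-TR4, against 6.24 in NCI-N87, where it was not detected. It was at least 2.68-fold higher (fitted log2 difference 1.60 ± 0.39, SE, limma adjusted p = 0.0277), and the adjusted p was 0.0508 without N87-TR1 and 0.0554 without N87-TR4. CD70, TNFSF9 and TNFSF14 are neighbours on chromosome 19 with no other protein-coding gene between them. TNFSF14 (LIGHT), unlike the other two, did not pass. Its levels were 12.73, 12.38, 12.87 and 12.39 in the resistant lines, against 12.49 in NCI-N87, and the 95% interval of its log2 difference ran from -0.69 to 0.89 (limma adjusted p = 0.865). This value rests on 1 of 3 TNFSF14 probes, since the other pair was not detected on any array.

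TNFSF10, the ligand TRAIL and an interferon-induced gene in many cells, was the ligand that fell. It stood at log2 levels of 4.60, 4.68, 4.70 and 4.85 in N87-TR1 to N87-TR4, all undetected, against 7.89 in NCI-N87. It was at least 2.91-fold lower (fitted log2 difference -3.19 ± 0.29, SE, limma adjusted p = 0.00044). Thus the TRAIL ligand and one of its death receptors were below detection in the resistant lines, while the other death receptor was detected in all 5 lines.

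Among ligands that did not pass, TNFSF15 (TL1A), which acts on T cells through DR3, had levels of 10.46, 10.04, 11.56 and 9.97 in N87-TR1 to N87-TR4, against 10.11 in NCI-N87. N87-TR3 was the highest line and the other resistant lines straddled NCI-N87 (log2 difference 0.40 ± 0.61, SE, limma adjusted p = 0.689). A second, dimmer TNFSF15 probe pointed the other way, detected in NCI-N87 alone at 7.27 and at 5.14 to 5.91 in the resistant lines (fitted log2 difference -1.77 ± 0.37, SE, limma adjusted p = 0.0201 among all detected probes), so the direction for this gene is not settled. LTA, lymphotoxin alpha, had levels of 7.07, 7.05, 7.99 and 7.23 in the resistant lines, against 6.88 in NCI-N87 (limma adjusted p = 0.505).

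TNFSF13B (BAFF), a survival factor for B cells, had levels of 7.43, 7.63, 7.26 and 7.39 in N87-TR1 to N87-TR4, against 7.97 in NCI-N87. All 4 resistant lines were lower, by 0.54 ± 0.30 (log2, SE), and the difference did not pass (limma adjusted p = 0.252). TNFSF12 (TWEAK) and TNFSF4 (OX40 ligand) were each detected in 1 resistant line and not in NCI-N87, with log2 differences of 0.21 ± 0.55 and 0.92 ± 0.41 (SE, limma adjusted p = 0.821 and 0.163).

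**Figure D3:**
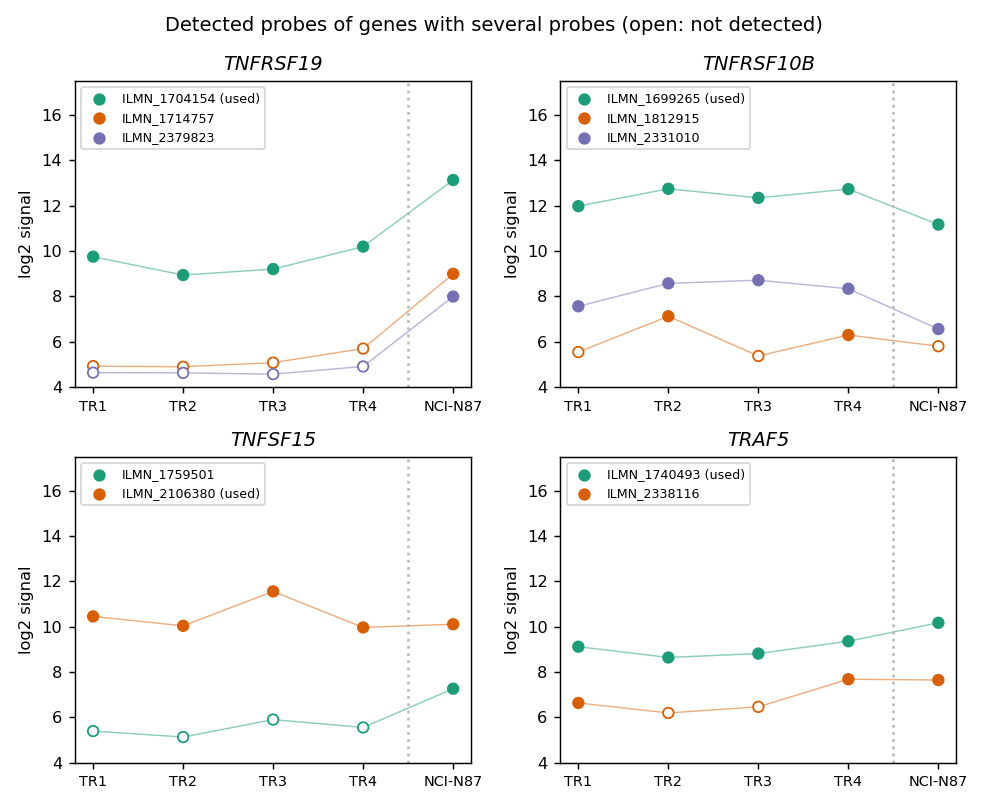
Normalised log2 signal (y axis) of every detected probe of TNFRSF19, TNFRSF10B, TNFSF15 and TRAF5 on the 5 arrays (x axis), resistant lines TR1 to TR4 left of the dotted line and NCI-N87 right of it; open circles mark probes not detected on that array, and lines only join the values of 1 probe. The 3 TNFRSF19 probes are all highest in NCI-N87, whereas the 2 TNFSF15 probes differ in where they are highest.

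None of the 5 tested intracellular members passed in limma, against 23.1% of all genes. Only 1, TRAF5, had an unadjusted p under 0.05, against 4454 of all 12478 genes. TRAF5, an adaptor for CD40, LTBR and several costimulatory receptors, had log2 levels of 9.12, 8.65, 8.82 and 9.36 in N87-TR1 to N87-TR4, against 10.18 in NCI-N87. All 4 resistant lines were below NCI-N87, with a difference of -1.19 ± 0.36 (SE, limma adjusted p = 0.0578, 95% interval -2.06 to -0.32). On the other detected TRAF5 probe N87-TR4 stood at 7.69, just above NCI-N87 at 7.65, and the other resistant lines stood at or below 6.64 (log2 difference -0.90 ± 0.57, SE, limma adjusted p = 0.321 among all detected probes). TRAF3, which restrains the non-canonical NF-kB kinase NIK, had levels of 7.06, 7.83, 7.43 and 7.06 in the resistant lines, against 6.50 in NCI-N87 (log2 difference 0.85 ± 0.39, SE, limma adjusted p = 0.171). TRAF1, TRAF6 and TNFAIP3, the A20 enzyme that shuts off NF-kB signalling, had log2 differences between -0.34 and 0.34, each with an interval spanning 0.

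The 20 members that were not tested had no probe above background on any array. They comprised the ligands TNF, LTB, FASLG, TNFSF8, TNFSF11, TNFSF13, TNFSF18 and the TNFSF12-TNFSF13 read-through gene. They also comprised the receptors CD40, NGFR, TNFRSF4, TNFRSF6B, TNFRSF8, TNFRSF11B, TNFRSF13B, TNFRSF13C, TNFRSF17, TNFRSF18 and TNFRSF25, and the antisense RNA TNFRSF14-AS1. TNF and FASLG, the best-known death ligands, were therefore not detectable in any of the 5 lines with these probes, which does not show that they were absent.

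Each resistant line was also set against NCI-N87 as single arrays, without replicates or a test, and NCI-N87 was shared by all 4 comparisons. N87-TR1 had 5 members at least 2-fold higher and 9 lower, where 19.2% of all genes were higher and 17.1% lower. N87-TR2 had 5 higher and 10 lower (18.7% and 16.5% of all genes), N87-TR3 had 8 and 10 (22.2% and 17.6%), and N87-TR4 had 5 and 10 (18.4% and 16.3%). In all 4 lines together 3 members were at least 2-fold higher and 8 lower, against 11.6% and 10.3% of all genes. They were the same 11 genes that passed the test, which used the same values. These counts take undetected signals as measured. TNFRSF11A was undetected in N87-TR1, N87-TR3 and NCI-N87, so its differences in those resistant lines are between signals near background.

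**Figure D4:**
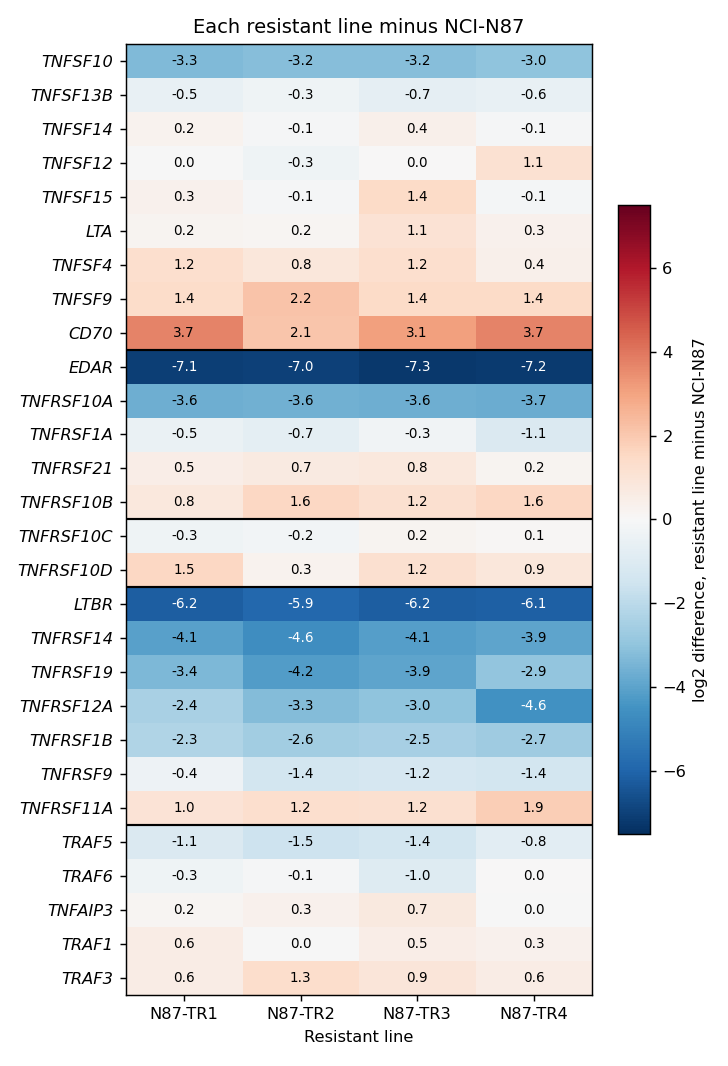
Log2 difference of each resistant line (columns) from NCI-N87 for the 28 tested members (rows, by role: ligands, death domain receptors, decoys, other receptors, intracellular members), printed in each cell and coloured from blue (lower) to red (higher). EDAR, LTBR, TNFRSF10A, TNFSF10 and TNFRSF1B, undetected in all 4 lines, have SDs of 0.06 to 0.18 between lines. CD70, TNFRSF12A and TNFSF15 have SDs of 0.73 to 0.90.

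The resistant lines were then compared with each other, each line against the other 3 by limma. Over all genes 0%, 0%, 0.954% and 0% passed for N87-TR1 to N87-TR4 in that order, and of the 28 members 0 passed for any line. At an unadjusted p under 0.05 there were 1, 1, 3 and 2 members in the same order of lines. The share of all genes at this unadjusted threshold was not counted, so these counts are not read as a result about the members. The smallest p belonged to TNFSF15, at 11.56 in N87-TR3 against 10.16 ± 0.26 (SD, n = 3) in the other resistant lines, a log2 difference of 1.40 ± 0.31 (SE, limma adjusted p = 0.096), and it passed under 4 alternatives (adjusted p = 0.0391 to 0.0499). TNFRSF12A stood at 6.77 in N87-TR4 against 8.42 ± 0.43 (SD, n = 3) in the others, and CD70 at 7.57 in N87-TR2 against 8.56 to 9.23 in the others, with limma adjusted p-values of 0.999 and 1. LTA was also highest in N87-TR3, at 7.99 against 7.12 ± 0.10 (SD, n = 3; limma adjusted p = 0.172). The median SD over the resistant lines was 0.35 for the members and 0.33 for all genes.

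Promoter sequences show the stretch before the transcription start of members that moved or stayed level together. RefSeq windows (GRCh38.p14) were at hand for 15 of the 18 described members searched, in 21 windows of 250 bases. Both strands were searched for the NF-kB consensus site, whose matches can overlap each other, and for TGANTCA, bound by AP-1. The NF-kB consensus was found in 6 of the 21 windows, from 5 genes, against 9.96% of 35116 RefSeq promoter windows, and TGANTCA in 3, from 2 genes, against 6.57%. Windows of the same gene can overlap. Those of TNFSF14 overlap almost wholly, so the same matches were counted in each. Printed 5′ to 3′ with matches in capitals are 3 receptors that fell, LTBR, TNFRSF14 and the second listed start of TNFRSF19, and TNFSF14, the ligand of LTBR and TNFRSF14.
LTBR (chr12:6383912-6384161, plus strand): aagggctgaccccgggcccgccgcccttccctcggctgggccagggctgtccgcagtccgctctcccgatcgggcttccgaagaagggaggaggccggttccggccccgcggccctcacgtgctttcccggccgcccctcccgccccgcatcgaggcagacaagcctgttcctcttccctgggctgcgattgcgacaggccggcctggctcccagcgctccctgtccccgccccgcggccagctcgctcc
TNFRSF14 (chr1:2556121-2556370, plus strand): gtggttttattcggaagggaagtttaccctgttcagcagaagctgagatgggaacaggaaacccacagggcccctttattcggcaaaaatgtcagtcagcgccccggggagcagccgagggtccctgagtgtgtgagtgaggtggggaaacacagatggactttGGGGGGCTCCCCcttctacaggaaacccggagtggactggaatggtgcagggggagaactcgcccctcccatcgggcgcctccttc
TNFRSF19 (chr13:23579110-23579359, plus strand): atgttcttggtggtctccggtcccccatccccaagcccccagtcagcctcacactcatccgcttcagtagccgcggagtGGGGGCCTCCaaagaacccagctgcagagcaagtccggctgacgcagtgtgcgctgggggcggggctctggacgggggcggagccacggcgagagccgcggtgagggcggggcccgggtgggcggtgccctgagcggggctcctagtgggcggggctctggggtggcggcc
TNFSF14 (chr19:6670159-6670408, minus strand): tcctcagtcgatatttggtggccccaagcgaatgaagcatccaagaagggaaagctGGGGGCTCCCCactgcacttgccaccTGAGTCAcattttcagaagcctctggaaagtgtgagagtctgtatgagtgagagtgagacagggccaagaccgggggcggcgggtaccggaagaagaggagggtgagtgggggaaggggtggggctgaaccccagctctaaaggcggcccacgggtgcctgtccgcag
LTBR held neither motif in this window, TNFRSF14 held the NF-kB consensus, and TNFSF14 held both. TNFRSF19 held the NF-kB consensus at its second start and not at its first, and TNFRSF1B, which also fell, held neither motif. Both outcomes thus occurred among receptors that fell, and the NF-kB consensus also occurred in TNFSF14, LTA and TRAF3, which did not pass the test. A match is a description of letters and not a bound site.

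Partner genes were taken from 6 lists of the pathway, and 15 of their 56 tested genes passed (3 higher, 12 lower), or 26.8% against 23.1% of all genes. Of the superfamily genes whose symbols the naming rule does not take, 7 were tested, and 2 rose and 2 fell. EDARADD, the adaptor of EDAR, rose 3.85-fold, at 8.72, 8.78, 9.31 and 9.46 in N87-TR1 to N87-TR4 against 7.12 in NCI-N87 (limma adjusted p = 0.0137). EDA2R, a second ectodysplasin receptor, was at least 1.33-fold higher (fitted log2 difference 2.09 ± 0.42, SE, limma adjusted p = 0.0137). The adaptors TRAF4 and TRAF7 fell 4.35-fold and 3.35-fold (limma adjusted p = 0.0221 and 0.00766), and TRAF4 did not pass without N87-TR4 (limma adjusted p = 0.0538). Each was detected in 3 of the 4 resistant lines, so both folds include an undetected line at its measured signal. EDAR was thus undetected in the resistant lines while its adaptor was higher.

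Of 9 tested death receptor signalling genes, 2 fell and 7 did not pass, against 10.5% lower over all genes. MLKL, the pore-forming effector of necroptosis, stood at log2 levels of 5.85, 5.02, 5.42 and 5.15 in N87-TR1 to N87-TR4, all undetected, against 12.48 in NCI-N87. It was at least 70.3-fold lower (limma adjusted p = 6.48e-05), and RIPK3, the kinase that activates it, was at least 1.43-fold lower (limma adjusted p = 0.00297).

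None of 11 tested IAP and ubiquitin regulators passed in limma, against 23.1% of all genes. At an unadjusted p under 0.05 there were 2, against 4454 of all 12478 genes. Of 16 NF-kB kinases and subunits 3 fell and 13 did not pass, against 10.5% lower over all genes. The precursor subunit NFKB1 fell 4.05-fold, with levels of 9.92, 11.09, 11.08 and 10.92 in N87-TR1 to N87-TR4 against 12.77 in NCI-N87, and RELA fell 2.12-fold (limma adjusted p = 0.0291 and 0.0429). NFKB1 did not pass without N87-TR4 (limma adjusted p = 0.0578), nor did RELA without N87-TR1, N87-TR2 or N87-TR4 (limma adjusted p = 0.0803, 0.0878 and 0.0932). RELA was detected in 3 of the 4 resistant lines, so its fold includes an undetected line at its measured signal. RELB, the subunit activated below LTBR, was undetected in the resistant lines and at least 2.61-fold lower (limma adjusted p = 0.0155). Of 8 tested NF-kB induced genes 3 fell: TNFAIP2 at least 2.59-fold, IRF1 3.42-fold and BCL3 3.15-fold (limma adjusted p = 0.00108, 0.014 and 0.0091). BCL3, too, was detected in 3 of the 4 resistant lines, and its fold includes an undetected line.

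Among 5 genes of ligand and receptor shedding, 2 fell and 1 rose, against 10.5% lower and 12.5% higher over all genes. The protease ADAM10 fell 15.5-fold, at 8.49, 8.99, 6.32 and 8.85 in N87-TR1 to N87-TR4 against 12.11 in NCI-N87 (limma adjusted p = 0.0272), with N87-TR3 the lowest and undetected. Without N87-TR3 it fell 10.1-fold (limma adjusted p = 0.000682), and without N87-TR1 it did not pass (limma adjusted p = 0.0601). RHBDF1, a partner of the TNF-releasing protease ADAM17, fell 10.8-fold (limma adjusted p = 0.00611). TIMP3, an inhibitor of ADAM17, was on average at least 1.86-fold higher (limma adjusted p = 0.0271), a call lost without N87-TR1, N87-TR2 or N87-TR4 (limma adjusted p = 0.0607, 0.0524 and 0.0599). TIMP3 was undetected in NCI-N87 and in N87-TR3. Its level of 6.24 in N87-TR3 lay below the lowest detected signal on the NCI-N87 array, 6.42, so the bound does not hold for that line.

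**Figure D5:**
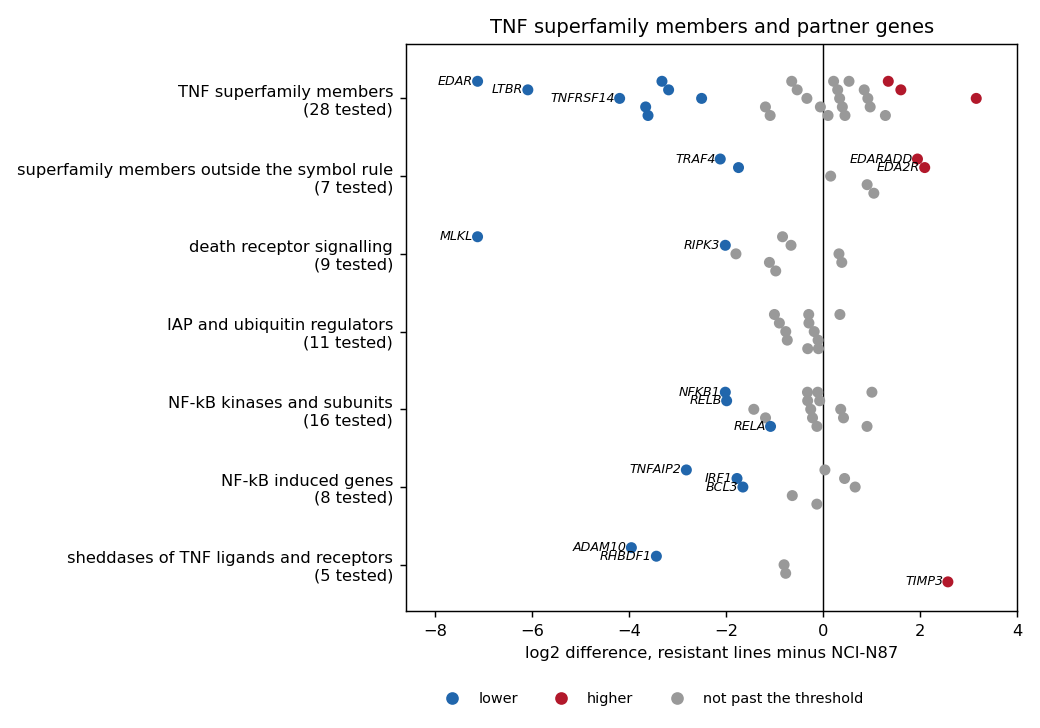
Log2 difference of the resistant lines from NCI-N87 (x axis) for the tested members and the tested genes of the 6 partner lists (y axis), 1 point per gene, spread vertically for visibility; blue is lower, red higher and grey not past an adjusted p of 0.05, and the 3 largest calls of each row are named. EDAR among the members and MLKL among the death receptor signalling genes lie far left, but as both were undetected in the resistant lines only their bounds of 50.7-fold and 70.3-fold are measured sizes.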

How the data were processed

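Gene expression was measured once in each of 5 gastric cancer cell lines on Illumina BeadChip arrays, which all carry 1 chip number in the labels, and the number of arrays limits the precision. The authors deposited a scanner-level signal intensity per probe on a linear scale, not normalized, per the file headers. Beside it the deposited table holds a detection p-value against negative controls. GenomeStudio is named in the submitters' processing notes, with no version. The authors also deposited a table of processed intensity with equal medians, which served as an alternative; its normalization is not stated in the sources used here.

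Probes were named through the platform annotation, with symbols updated by gene ID through RefSeq (GRCh38.p14): 30111 probes carried 1 symbol, 8 carried several, 17199 are unnamed here, and gene IDs matched for 30072. Signals were processed with neqc of limma 3.58.1 in R 4.3.3 (offset 16, background inferred from the detection p-values, quantile normalization, log2). Genes entered the test through probes with 1 symbol and a detection p under 0.01 on any array, represented by the probe with the highest mean, which left 12478 genes. Probes of different genes were not compared in level, but the marker sums add the signals of different genes within an array.

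The 4 resistant lines were compared with NCI-N87, and each with the other 3, by lmFit and eBayes of limma, two-sided, with Benjamini-Hochberg adjustment over all genes tested (3 residual and 3.83 prior degrees of freedom in the first). The first comparison was also run on simulated data for 12478 genes, with log2 changes of 1, 2 and 4 given to 67, 67 and 66 genes. It found 0%, 23.9% and 92.4% of these changes in that order. In the measured data 23.1% of genes passed, among them RELA at a log2 difference of -1.08 (limma adjusted p = 0.0429). Recovery with as large a share of changed genes was not tested, so these percentages hold only for the simulated setting. Chromosome 8 was left out of the promoter search. Described were members that passed, members detected on all 5 arrays, the remaining tested ones in brief, and up to 4 genes that passed in each list. CD27, CLDN18, CD14, CD68, LCP1 and 3 undetected leukocyte markers were named after their values were seen. Members and lists were chosen with earlier results of these data known. The alternatives were background, offset, normalization, processed values, detection filter, probe summary, variance model, threshold and leaving out each resistant line.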

Additional observations from a re-analysis of the deposited data

Results flagged for a closer look

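Among the 4 resistant lines, 2 of the 28 tested members had 1 line far from the others by Dixon's test, which chance gives in about 1 in 20 groups. TNFRSF9 stood at a log2 level of 6.76 in N87-TR1, against 5.78 to 5.91 in the other resistant lines, where its probe was not detected. TNFSF9 stood at 8.40 in N87-TR2, against 7.63 to 7.67 in the other resistant lines, all detected.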

How the results depend on the processing

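EDAR, LTBR, TNFRSF10A, TNFRSF12A, TNFRSF14, TNFRSF19, TNFRSF1B, TNFSF10 and CD70 kept their direction and stayed past an adjusted p of 0.05 in every alternative that tested them, 14 or 15 each. Over all tested members, 376 results stayed on their side of the threshold, 13 lost the call, 11 gained it and 4 changed sign. The sign changes were TNFRSF10C, whose log2 difference ran from -0.149 to 0.0402 over the fits that leave out 1 line (highest without N87-TR1), TNFSF12, which ran from -0.0959 (without N87-TR4) to 0.389, TNFSF14 under cyclic loess (-0.0522) and TNFSF15 with the mean of its probes (-0.686). None of these genes passed in limma either way, and the cause was not tested. Cyclic loess moved the median log2 difference of all genes to -0.04, against 0.07. TNFSF9 was also lost without background correction (adjusted p = 0.0547), and TRAF5 passed in 4 alternatives (0.0335 to 0.0493). Requiring detection on all 5 arrays tests fewer genes: it left 1462 of 8701 genes called (16.8%), 2 of 12 members (0 higher, 2 lower, TNFRSF12A and TNFRSF19) and 4 partner genes, and 4, 5, 7 and 4 members at least 2-fold apart from NCI-N87 in N87-TR1 to N87-TR4. At an adjusted p under 0.01 there were 1379 genes, 7 members (0 higher) and 6 partner genes. With the authors' processed values 9 members were at least 2-fold apart in N87-TR1, against 14. TNFSF15 was the 1 member called in N87-TR3 against the other resistant lines without background correction, with the authors' values, with detection on all 5 arrays and with an intensity trend in eBayes. Leaving out each resistant line gave 2099 to 3761 genes, 9 to 12 members (1 to 4 higher, 8 to 9 lower) and 11 to 17 partner genes. The lowest member count came without N87-TR4, with CD70 the 1 member higher. NCI-N87 could not be left out. No paired analysis was possible because NCI-N87 has a single array. Signals near background limit the folds of undetected members to bounds.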
